A study of Canis lupus familiaris with 186 samples.

Results

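The genes of the cytosolic ribosomal proteins were described in 186 primary osteosarcomas of dogs. Members were chosen by name alone: 77 of the 37952 rows of the gene table carried an RPL, RPLP or RPS symbol with a number, and 74 of these had a median count of at least 10 and were kept. They comprised 43 genes of the large subunit (RPL and RPLP) and 31 of the small subunit (RPS), and all 74 passed the low-count filter used for testing. The 3 rows left out were RPL10L, which was listed at 0 in 172 libraries, RPL3L, with a median of 4.5 counts, and a second row named RPL32.

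Ribosomal proteins assemble with ribosomal RNA into a small subunit, which decodes the mRNA, and a large subunit, which joins amino acids. The stalk proteins RPLP0, RPLP1 and RPLP2 recruit the factors that drive each step of translation. Most of these mRNAs begin with a terminal oligopyrimidine (TOP) tract, through which mTOR and LARP1 control their translation, and their transcription is among the programs raised by MYC. Free RPL5 and RPL11 bind MDM2 and so stabilise p53 when ribosome assembly is disturbed.

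The tumors were appendicular osteosarcomas of client-owned dogs without macroscopic metastasis, taken before treatment in the trials COTC021 and COTC022, with 93 dogs each. Both trials gave carboplatin and the study also had a rapamycin arm, but the sources used here do not say which trial was which arm. Dogs had been grouped by K-means clustering on gene signature 1 (GS-1) into a favorable prognosis cluster (FP, 58 dogs) and a poor prognosis cluster (PP, 128 dogs), 29 of the FP dogs coming from each trial. The disease-free interval (DFI, 143 events) and overall survival (OSv, 124 events) were given in days. The paper lists more dogs as dead during the study than there were OSv events, for which the sources used here give no reason. Columns of the gene table were named in a pair of styles, the character between the parts of the name standing double for 50 dogs and single for 136. The libraries are called double- and single-separator here, and the double style held 18 dogs of COTC021, 32 of COTC022 and 13 of the FP cluster.

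Total counts ranged from 6587631 to 27420857 per library. The double-separator libraries were deeper, with a median of 19440449.5 counts (15803906 to 23214323) against 9851681 (6587631 to 27420857), so that style and depth could hardly be told apart. One sample stood for each dog, so that p-values measured the spread between dogs. Bulk tissue was sequenced, and fewer cells of a type and less RNA per cell cannot be told apart. Osteoblast markers were present in every group: the summed level of 12 genes ran from 1342 to 202911 CPM (counts scaled to the library total) with a median of 49409.8. Ribosomal protein values were whole numbers less often than others: 34.5% of the members' values were not whole, against 3.07% of all values. Estimated counts need not be whole where reads match more than 1 gene, and which genes shared reads with the members was not examined. For 31 members over 10% of values were not whole, among them RPL37, RPS15A and RPS3A in every library, and their levels are less certain. The other end held 39 members with whole values throughout.

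The members together took a median of 5.84% of all counts (range 2.63% to 17.6%), a 6.69-fold span between dogs. Large-subunit genes took a median of 3.36% (1.52% to 9.72%) and small-subunit genes 2.47% (1.11% to 7.85%). Their ratio moved much less, with a median of 1.37 and a range of 1.02 to 1.67 over the 186 dogs. The highest share was that of dog 1410 of COTC022 (17.6%, double separator, PP), followed by dog 1009 of COTC021 (14.2%) and dog 1025 of COTC022 (13.4%), and the lowest that of dog 733 of COTC022 (2.63%). Results that dog 1410 decided are given with and without it.

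**Figure D1:**
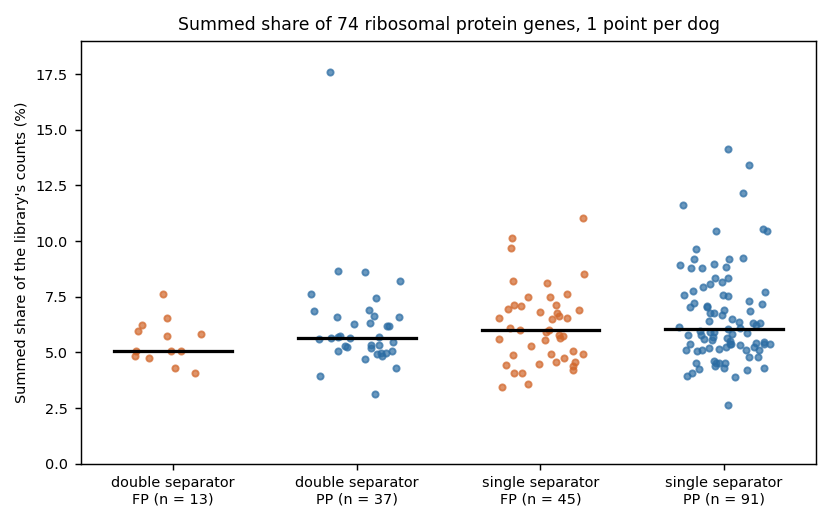
Summed share of the 74 ribosomal protein genes (percent of a library's counts, y axis) in each of the 186 dogs, grouped by column-name style and GS-1 cluster (x axis); horizontal lines are medians. The groups overlapped over most of their range, and 1 double-separator PP dog stood at 17.6%.

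Shares overlapped widely between groups. They ran from 3.15% to 17.6% (median 5.64%) in double-separator libraries and from 2.63% to 14.2% (median 6.00%) in single-separator libraries. FP tumors lay between 3.46% and 11.0% (median 5.80%) and PP tumors between 2.63% and 17.6% (median 5.87%). The mean z-score of the members correlated with the log2 library total at r = -0.07 (Spearman's rho = -0.06, 186 dogs), given as a description.

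Among single genes, RPL4, RPLP0, RPS4X, RPS2, RPL13A and RPL10 had the highest median levels within the table. RPL4, a core protein of the large subunit that lines the exit tunnel, ran from 689 to 6019 CPM with a median of 1909.8, and RPLP0, the base of the stalk, from 647 to 5644 CPM with a median of 1733. The lowest medians were those of RPS27L (114 CPM, 47.6 to 424), RPL36 (144 CPM, 50.3 to 998), RPS28 (182 CPM), RPL36AL (183 CPM), RPL38 (199 CPM) and RPS15 (222 CPM). CPM values are not divided by transcript length and give no order of transcript number between genes. Spread between dogs was moderate: the SD of log2 CPM had a median of 0.52 over the members (0.37 to 0.76). It was 0.54 over the 1310 other genes with a mean level at or above the lowest of a member. RPL3, which lies close to the peptidyl transferase center, varied least (SD 0.37), and RPL36, RPLP1 and RPS20 most (SD 0.76, 0.75 and 0.75).

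The members rose and fell together across dogs. Over 2701 pairs, the median Pearson's r of log2 CPM was 0.59, 80.2% of pairs exceeded 0.5 and none was below 0 (lowest 0.11). For comparison, pairs within 1119 genes taken at even steps through the tested genes had a median r of -0.004, with 0.38% over 0.5. Pairs of the 1310 other genes at or above the lowest member's mean level had a median of 0.02, and that set was not matched for level. All pairs share the same 186 libraries and their scaling, and these values are descriptions. Within double-separator libraries the median was 0.60 and within single-separator libraries 0.60. FP tumors gave 0.60 and PP tumors 0.59. COTC021 gave 0.51 and COTC022 0.65. A first principal component held 59.0% of the members' variance and the second 4.02%.

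RPS9 followed the mean of the other members most closely (r = 0.92), and RPS16 (0.88), RPL13A (0.87) and RPL32 (0.86) were also near the top. RPS27L was the farthest from it (r = 0.41), followed by RPL36AL (0.55), RPL15 (0.56), RPS20 (0.62) and RPL8 (0.63). RPS27L and RPL36AL are paralogs of RPS27 and RPL36A that arose by gene copying. Large-subunit and small-subunit genes had similar medians of this measure, 0.76 and 0.77.

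Outside the members, genes with a profile most like their mean z-score included SNRPD2 (r = 0.76), NACA (0.74), RACK1 (0.73), EIF3K (0.73), NOP53 (0.72), NPM3 (0.72), RTRAF (0.68), EEF1D (0.68) and RPSA (0.68), over 186 dogs. RPSA encodes a small-subunit protein and RACK1 a ribosome-bound protein, and the name rule matched neither symbol. Leaving out the 2 dogs farthest from the median lowered these values to between 0.63 and 0.73. XIAP, an inhibitor of caspases, had the lowest value (r = -0.60).

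What remained of each gene after the mean of the other members was fitted was arranged by chromosome. Of the 2701 pairs, 111 lay on the same chromosome, and 19 of the 20 highest residual correlations were among these. The median residual r was 0.27 for same-chromosome pairs, 0.34 where they lay under 10 Mb apart (47 pairs) and 0.22 where they lay farther apart (64 pairs), against -0.03 for 2590 pairs on different chromosomes. A residual r over 0.3 was found in 39.6% of same-chromosome pairs and in 0.89% of the others. Within the double-separator libraries the same-chromosome median was 0.26, and within the single-separator libraries 0.26.

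**Figure D2:**
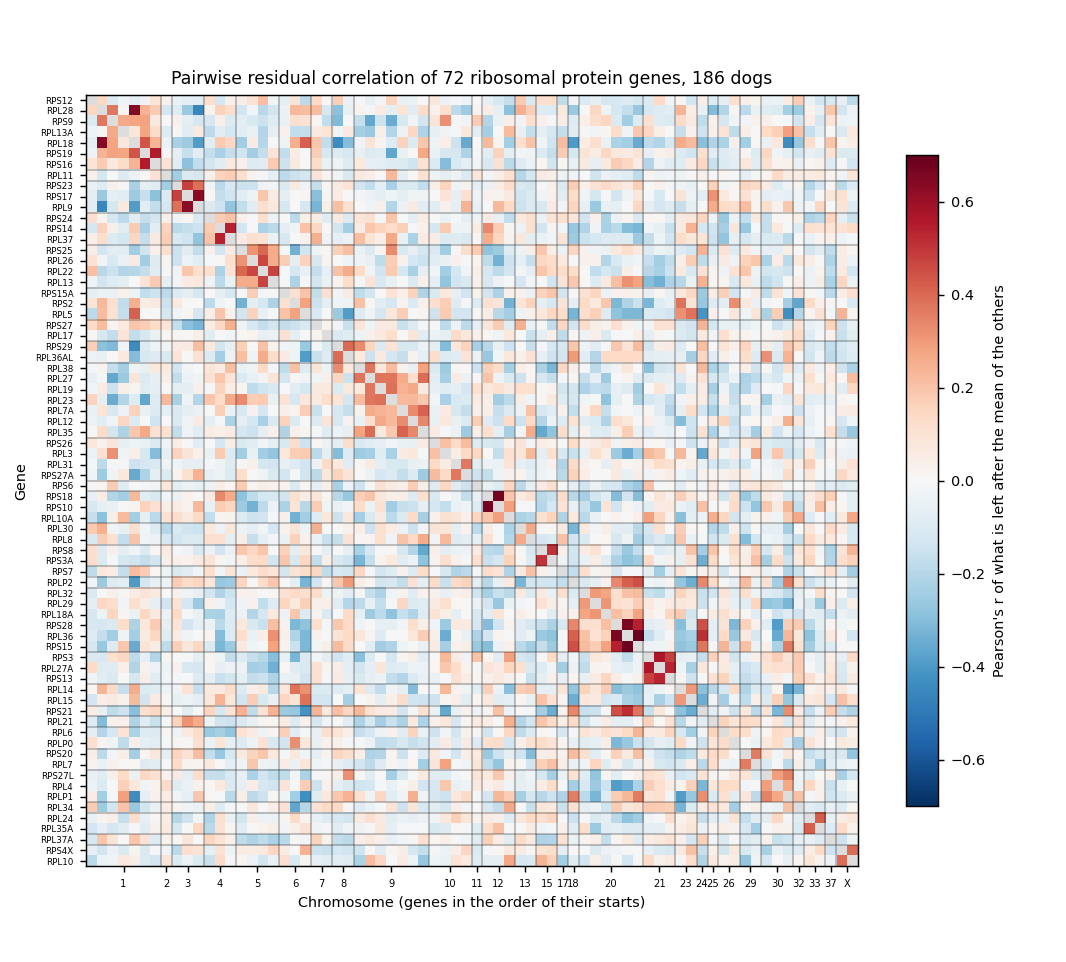
Residual Pearson's r between 72 of the 74 ribosomal protein genes over 186 dogs, after the mean of the other members was fitted to each gene; rows are genes and the x axis gives their chromosomes in the same order, with thin lines between chromosomes. Red blocks lie along the diagonal, where genes share a chromosome; over all 74 genes the same-chromosome median was 0.27.

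The highest pair was RPL36 and RPS15 on chromosome 20 (residual r = 0.68), with starts 3.14 Mb apart. RPS10 and RPS18 on chromosome 12 (0.67, 1.03 Mb), RPL36 and RPS28 on chromosome 20 (0.66, 1.42 Mb) and RPL18 and RPL28 on chromosome 1 (0.64, 5.30 Mb) were among the next. RPL36 and RPS21 made the only pair among the 20 highest on different chromosomes (0.52), and RPS21 also paired with RPS28.

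The same arrangement held between ribosomal protein genes and their neighbors of other function. Over 2161 pairs of a member and another gene with starts under 1 Mb apart, the median residual r was 0.29 and 48.1% of pairs exceeded 0.3. It was 0.20 at 1 to 5 Mb (5522 pairs), 0.14 at 5 to 20 Mb (13077 pairs) and 0.10 at 20 Mb or more on the same chromosome (16234 pairs), against -0.006 on other chromosomes, where 0.84% exceeded 0.3. For 74 of 74 members, the median within 5 Mb was above that of other chromosomes. The same distances were taken for 1113 other genes of any level at even steps, with the members' mean fitted to each. Their medians were 0.18, 0.12, 0.08 and 0.06, and 94.4% of those with a neighbor within 5 Mb lay above their own value for other chromosomes. On other chromosomes 3.09% of their pairs exceeded 0.3. The members therefore shared the pattern with genes at large. Their medians were higher at every distance, but the fitted mean is the members' own and takes out more of their shared variation than of other genes'. The sets were also not matched for level, so the medians are not a like comparison, and their difference was not tested. Without dog 1410 the members' values were 0.29, 0.20, 0.14 and 0.10.

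**Figure D3:**
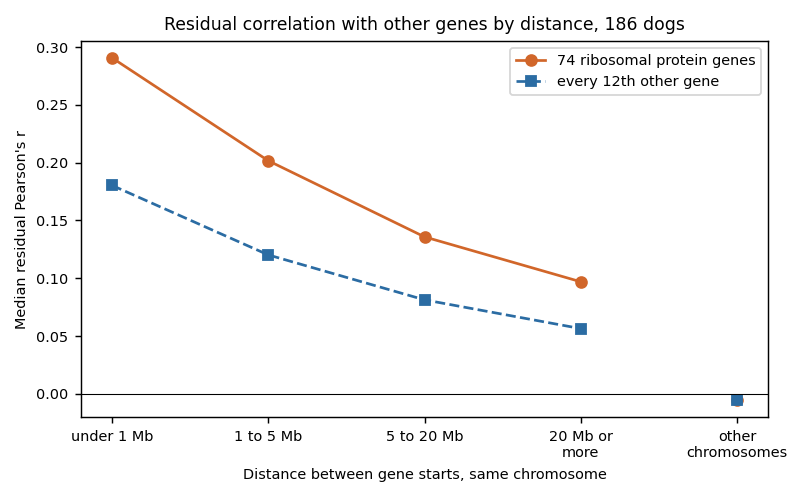
Median residual Pearson's r (y axis) between a gene and other genes by the distance between their starts (x axis), for the 74 ribosomal protein genes (circles) and for every 12th other gene (squares), over 186 dogs. Both fell with distance, from 0.29 and 0.18 under 1 Mb to medians of -0.0056 and -0.0055 on other chromosomes.

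RPL8 (chromosome 13, 38851293 to 38854172) had the highest median residual r with genes within 5 Mb, at 0.46 over 83 genes, and its closest companion was PUF60 (r = 0.88). RPL30 (chromosome 13, 407182 to 410785) reached 0.41, RPS20 (chromosome 29, 7985835 to 7987201) 0.39 and RPS25 (chromosome 5, 14859467 to 14862033) 0.37. The median over the 74 members was 0.26, and the lowest value was that of RPL13A (chromosome 1, 107686472 to 107690551) at 0.08. Coordinates are those of the RefSeq annotation of the UU_Cfam_GSD_1.0 assembly. DNA copy number was not measured in these files, and its part in the arrangement was not tested.

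The 12 largest deviations of a member in a single dog were set beside the genes around it. RPS20, a small-subunit protein, stood at 7921 CPM in dog 402 of COTC022 against a median of 738 CPM over all dogs, 3.54 log2 units above what the other members gave. The 9 other genes within 1 Mb of it were also higher in that dog, by a median of 3.65 log2 units, whereas the 16 genes at 1 to 5 Mb had a median of -0.07. RPL37 in dog 2317 of COTC021 (1414 CPM, median 452) was 1.79 log2 units above, with a median of 2.01 over 8 neighbors within 1 Mb and 0.04 over 35 genes at 1 to 5 Mb. In dog 1410, RPS25 stood at 9150.0 CPM (median 690.4 over all dogs), 2.14 log2 units above, and the 36 neighbors within 1 Mb had a median of 1.56, against -0.36 for the 31 genes at 1 to 5 Mb. RPLP2 in dog 522 of COTC022 was 2.31 log2 units above, with medians of 1.87 over 22 neighbors within 1 Mb and 0.26 over 92 genes at 1 to 5 Mb. In the next cases, as with RPS25 and RPLP2 above, the neighbors within 1 Mb shifted less than the member. Genes at 1 to 5 Mb shifted in the member's direction too. RPL31 in dog 2322 of COTC022 (3571 CPM, median 622) was 2.94 log2 units above, with medians of 1.00 within 1 Mb and 0.46 at 1 to 5 Mb. RPS20 in dog 1005 of COTC021 deviated by -1.86 log2 units, with medians of -0.82 and -0.88 over these distances. RPL36 in dog 2012 of COTC022 deviated by -1.83 log2 units, with medians of -0.69 and -0.93.

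RPL17 went the other way. It stood at 143 CPM in dog 216 and 239 CPM in dog 224, both of COTC022, against a median of 1078 CPM, which deviated by -2.18 and -1.94 log2 units from what the other members gave. The 13 genes within 1 Mb had medians of -0.29 and -0.09 in those dogs. Deviations beyond 1 log2 unit in either direction were 102 upward and 78 downward of 13764 values, and they touched 58 members and 87 dogs. These dogs were singled out for their values, and no group was formed from them.

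The effect of column-name style was examined first among the groups, since it followed library depth. RPLP1, RPS15, RPLP2 and RPS10 were lower in double-separator libraries, and no member was called higher. These were 4 of 74 members (5.41%), where 2.35% of the 13422 tested genes were called lower and 1.92% higher, by limma-voom with Benjamini-Hochberg adjustment. Over the members the median log2 fold change was -0.09, against 0.01 over all genes, and 15 of 74 values were above 0.

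RPLP1, which pairs with RPLP2 in the stalk, ran from 340.3 to 5609.9 CPM with a median of 620.0 in double-separator libraries and from 386 to 5456 CPM with a median of 959 in single-separator libraries. Its log2 fold change was -0.65 ± 0.12 (SE; adjusted p = 4.39e-05). RPS15, a small-subunit protein at the decoding face, had medians of 189 CPM (97.0 to 496) and 252 CPM (92.3 to 1125), a difference of -0.51 ± 0.12 (adjusted p = 0.00221). RPLP2 had medians of 279.9 and 350.2 CPM (-0.36 ± 0.11, adjusted p = 0.0362), and RPS10 851 and 1084 CPM (-0.32 ± 0.10, adjusted p = 0.0458). The ranges of the groups overlapped for each gene. RPL36 (-0.37 ± 0.12, adjusted p = 0.0711) and RPS28 (-0.34 ± 0.11, adjusted p = 0.0541) missed the threshold. The highest positive values were those of RPL22 (0.15 ± 0.10), RPS3A (0.10 ± 0.09), RPL18 (0.10 ± 0.09), RPL28 (0.10 ± 0.09) and RPL37A (0.09 ± 0.09), none of them called.

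With the log2 library total in the model, no member was called, and 9 genes were called in all (4 higher, 5 lower, the latter 0.0373%). RPLP1 then had a value of -0.32 and RPS15 -0.33. The members' median was -0.14 in that fit, with 17 of 74 values above 0, against -0.09 without the library total. Without the low-count filter 11 members were called lower, where 37.9% of 30014 genes were. Within COTC021 1 member passed as lower (0.522% of genes did) and the members' median turned to 0.025, and within COTC022 1 passed as lower (0.462%) with a median of -0.17. RPLP1 was -0.70 in COTC021 (adjusted p = 0.0177) and -0.61 in COTC022 (adjusted p = 0.0510). Dog 1410 is a double-separator library: without it 10 members were called lower, where 2.77% of genes were, and RPL36, RPS28, RPL12, RPL13A, RPL27A and RPS4X joined the 4.

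**Figure D4:**
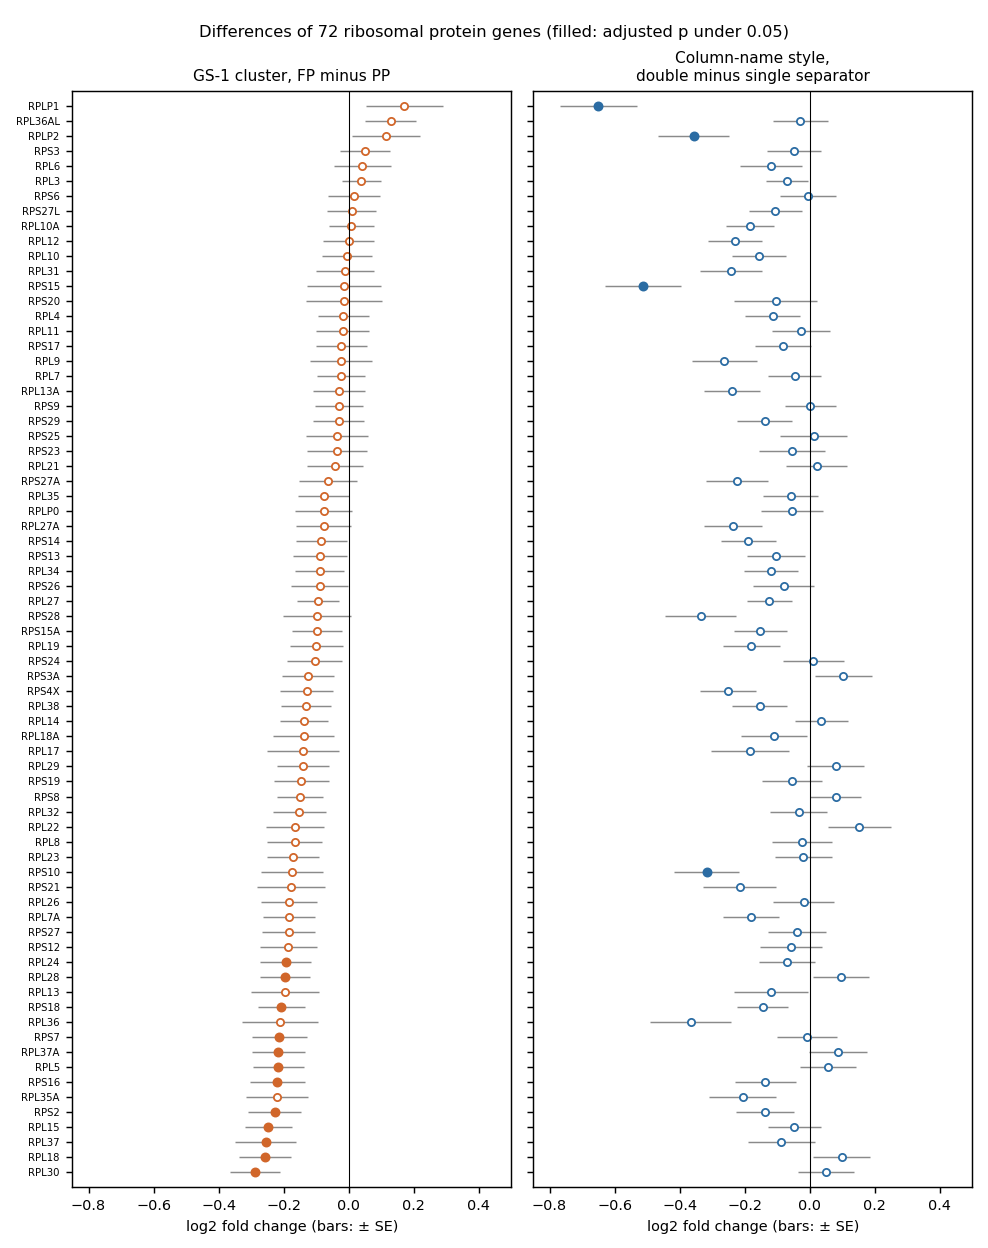
Log2 fold changes of 72 of the 74 ribosomal protein genes (points; bars are ± SE) for the GS-1 clusters (FP minus PP, left) and the column-name styles (double minus single separator, right), genes sorted by the left panel. Filled points had an adjusted p under 0.05 (limma-voom): 12 at the left and 4 at the right, all below 0.

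Between the GS-1 clusters, RPL30, RPL18, RPL37, RPL15 and RPS2 were the members lowest in FP tumors among those called, and no member was called higher. The clusters had been made from 27 GS-1 genes present in the table, of which 0 were members. In all, 13 of 74 members (17.6%) were lower in FP tumors, where 19.3% of all tested genes were called lower and 18.7% higher, so that the share of lower calls was near that of genes at large. The members' median log2 fold change was -0.10 (all genes -0.03), with 9 of 74 values above 0. Called genes numbered 8 of the large subunit (RPL5, RPL15, RPL18, RPL24, RPL28, RPL30, RPL37 and RPL37A) and 5 of the small subunit, among them RPS2, RPS7, RPS16 and RPS18.

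RPL30 ran from 233 to 907 CPM with a median of 469.7 in FP tumors and from 269 to 2037 CPM with a median of 551 in PP tumors, and the groups overlapped over most of this range. The log2 fold change was -0.29 ± 0.08 (SE; adjusted p = 0.00147). RPL18 had medians of 581 and 670.1 CPM (-0.26 ± 0.08, adjusted p = 0.00581), RPL37 430.0 and 463 CPM (-0.26 ± 0.09, adjusted p = 0.0219), RPL15 797 and 924 CPM (-0.25 ± 0.07, adjusted p = 0.00393) and RPS2 1569.6 and 1726 CPM (-0.23 ± 0.08, adjusted p = 0.0185). RPL5 of the MDM2-binding pair was lower in FP tumors (-0.22 ± 0.08, adjusted p = 0.0209), while RPL11 had a value of -0.02 ± 0.08 (adjusted p = 0.883). The difference between RPL5 and RPL11 was not tested. Among the called genes, the levels of RPL37, RPS2, RPL5 and RPL15 are less certain. Their values were not whole in 100%, 98.9%, 97.3% and 71.5% of libraries.

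RPLP1 (0.17 ± 0.12, adjusted p = 0.249), RPL36AL (0.13 ± 0.08, adjusted p = 0.184), RPLP2 (0.12 ± 0.10, adjusted p = 0.395), RPS3 (0.05 ± 0.08) and RPL6 (0.04 ± 0.09) had the highest values and were not called. RPS6, the substrate of S6 kinase, had a value of 0.02 ± 0.08 (adjusted p = 0.901), RPS19, the gene most often mutated in Diamond-Blackfan anemia, -0.15 ± 0.08 (adjusted p = 0.167), and RPLP0 -0.08 ± 0.09 (adjusted p = 0.508). No member reached a 3-fold difference, as 2.35% of genes did.

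Other tests called more members: edgeR's quasi-likelihood test called 24 lower (22.5% of all genes lower) and DESeq2 27 (23.8%), neither any higher. Within COTC021 no member passed (limma-voom, 9.04% of genes lower), and within COTC022 3 did (7.65%). Within double-separator libraries 0 passed, and within single-separator libraries 6 did (2.14% and 11.8% of genes lower). RPL30 was -0.18 in COTC021 (adjusted p = 0.191) and -0.41 in COTC022 (adjusted p = 0.00585). In a limma-voom fit with an interaction term, no gene had a cluster effect that differed between trials or between styles after adjustment. At an unadjusted p under 0.05, 397 of the 13422 tested genes did so by trial and 923 by style. Of the 74 members, 3 did so by trial and 0 by style.

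Cell type markers moved with the clusters, whose difference the paper generally describes as immune hot against immune cold. Higher immune markers in FP tumors are therefore not evidence apart from how the clusters were made. All 8 tested T and NK cell genes and 10 of 11 macrophage genes were higher in FP tumors. The summed macrophage genes ran from 823 to 9322 CPM (median 2266) in FP and from 128 to 2617 CPM (median 915) in PP tumors. Summed T and NK cell genes ran from 13.8 to 5521 CPM (median 128) in FP and from 6.01 to 124 CPM (median 28.0) in PP tumors. Cartilage genes were lower in FP tumors for 6 of 7, osteoblast genes for 6 of 11 and proliferation genes for 7 of 12. Across dogs, the members' mean z-score correlated at -0.36 with the summed osteoclast genes, at -0.24 with macrophage and at -0.21 with endothelium genes. It correlated at -0.16 with osteoblast, 0.15 with cartilage, 0.002 with T and NK cell and -0.03 with proliferation genes. Values for the other marker lists lay between -0.08 and 0.10. The part of these cells in the members' differences was not tested.

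Between the trials, no member was called, and of 13422 genes 2 were (0.0149%, limma-voom). Of the members 6 had an unadjusted p under 0.05, where 9.92% of genes did. Values of the members lay between -0.09 (RPL15) and 0.24 (RPL36, adjusted p = 0.454), with a median of 0.08 and 65 of 74 above 0, COTC022 being the higher. Other tests called no member either, 0 by edgeR (129 genes in all) and 0 by DESeq2 (91 genes). The median was -0.055 within double-separator libraries and 0.13 within single-separator libraries.

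With DFI, 6 members were associated, each with a higher hazard at a higher level: RPL35, RPL23, RPS21, RPS27, RPL37 and RPL11. They made up 8.11% of the members, where 6.55% of all genes were called with a higher hazard and 6.09% with a lower one, by Cox models per gene with Benjamini-Hochberg adjustment over 13422 genes. No member was called with a lower hazard. Hazard ratios, per SD of log2 CPM, were above 1 for 68 of 74 members, with a median of 1.11 (0.92 to 1.3) against 1.00 over all genes. At an unadjusted p under 0.05, 22 members had a higher hazard (14.3% of all genes did) and 0 a lower one. Since the members rose and fell together across dogs, counts of members in this and the other comparisons are not separate observations.

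RPL35, a protein at the exit of the large-subunit tunnel, ran from 196 to 1228 CPM with a median of 427 over the 186 dogs. Its hazard ratio was 1.3 (95% interval 1.11 to 1.52, adjusted p = 0.0196). RPL23 (225 to 2362 CPM, median 508) had a ratio of 1.28 (1.08 to 1.52, adjusted p = 0.0415), RPS21 (110.0 to 2685 CPM, median 333) 1.27 (1.08 to 1.50, adjusted p = 0.0427) and RPS27 (236 to 1745 CPM, median 477) 1.26 (1.07 to 1.49, adjusted p = 0.0487). RPL37 had 1.25 (1.07 to 1.46, adjusted p = 0.0476) and RPL11 1.24 (1.06 to 1.44, adjusted p = 0.0471). Of these genes RPL37 was also lower in FP tumors. Values were not whole in 100% of libraries for RPL37, 91.9% for RPS21 and 80.6% for RPS27, whose levels are less certain.

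RPS6 had the lowest ratio at 0.92 (0.77 to 1.10, adjusted p = 0.565), followed by RPL31 (0.95), RPL10 (0.97), RPL10A (0.97) and RPL15 (0.97), none called. RPL5 had 1.12 (0.96 to 1.31, adjusted p = 0.309), RPS19 1.13 (0.97 to 1.32, adjusted p = 0.283), RPLP0 1.12 (0.95 to 1.32), RPS4X 1.11 (0.94 to 1.31) and RPS27A, a fusion of ubiquitin with a small-subunit protein, 1.12 (0.96 to 1.31).

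Dog 1410 decided most of these calls. Without it 1 member passed, RPL35 (ratio 1.27, adjusted p = 0.0323), where 6.02% of genes were called with a higher hazard. At an unadjusted p under 0.05, 12 members then had a higher hazard (13.8% of all genes did). RPL23, RPS21, RPS27, RPL37 and RPL11 then had ratios of 1.24, 1.23, 1.23, 1.22 and 1.21 and adjusted p of 0.0802, 0.0794, 0.0794, 0.0790 and 0.0785, and 66 of 74 ratios stayed above 1. Stratified by trial, 1 member passed (6.28% of genes with a higher hazard), and with the GS-1 cluster in the model, or within either trial or style, none did at an adjusted p under 0.05. In those fits a higher hazard at an unadjusted p under 0.05 was found for 12 members with the cluster in the model (10.5% of all genes), 15 in COTC021 (12.2%), 2 in COTC022 (7.3%), 16 in double-separator (10.8%) and 8 in single-separator libraries (8.02%). RPL35 had ratios of 1.34 and 1.23 in COTC021 and COTC022 and of 1.33 and 1.29 in double- and single-separator libraries.

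**Figure D5:**
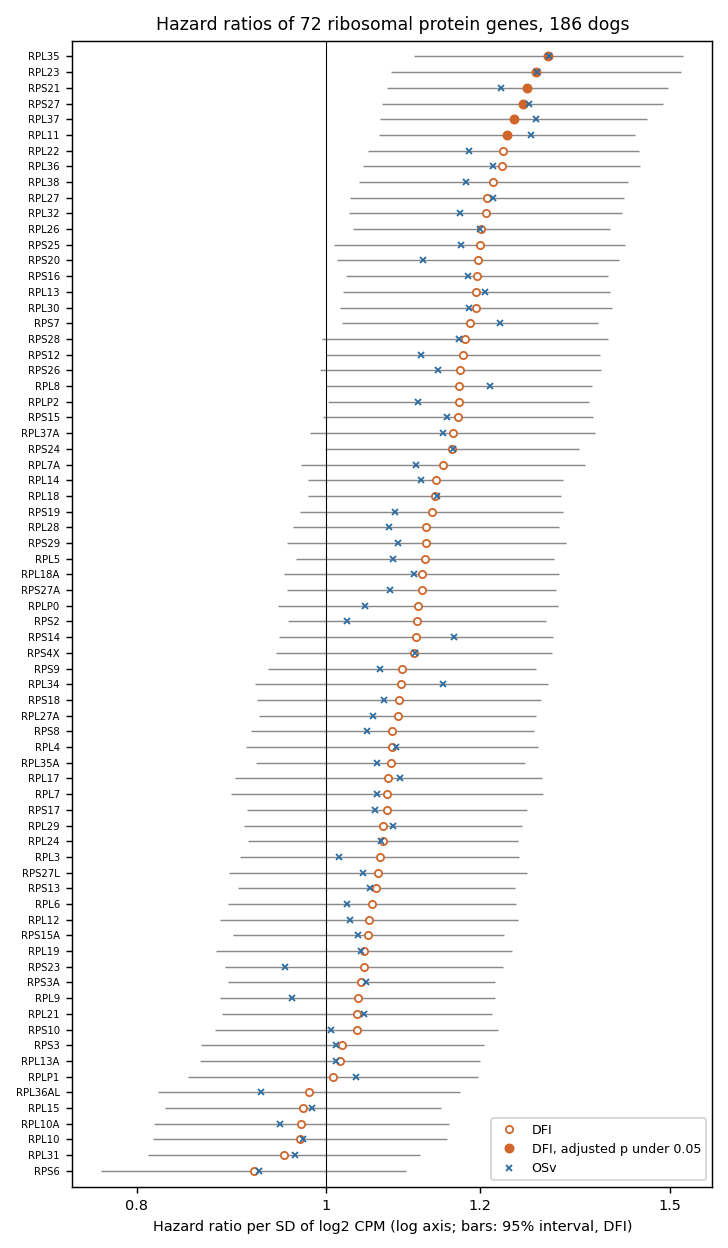
Hazard ratio per SD of log2 CPM (log axis) for 72 of the 74 ribosomal protein genes in 186 dogs, for DFI (circles, with 95% intervals; filled where the adjusted p was under 0.05) and OSv (crosses). For DFI 66 of these 72 ratios lay above 1, and 6 were called.

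With OSv, no member was called by the same Cox models (1.12% of genes were with a higher and 1.06% with a lower hazard), and 13 had a higher hazard at an unadjusted p under 0.05, as 10.8% of all genes did. Ratios were above 1 for 66 of 74 members, with a median of 1.09. Without dog 1410, 8 members had such a p (10.5% of all genes) and 60 of 74 ratios were above 1. RPL35 (1.3, 1.10 to 1.54, adjusted p = 0.0667), RPL23 (1.28), RPL37 (1.28), RPL11 (1.27) and RPS27 (1.27) had the highest values, and RPS6 (0.92), RPL36AL (0.93), RPL10A (0.95), RPS23 (0.95) and RPL9 (0.96) the lowest. The DFI and OSv models shared the same dogs and expression values.

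Genes that build ribosomes were set beside those of the ribosome itself. Of all tested genes, 6.55% were called with a higher and 6.09% with a lower hazard for DFI, and 1.12% and 1.06% for OSv. Between clusters 19.3% were lower and 18.7% higher in FP tumors. Of 51 ribosome biogenesis genes, 21 were called with a higher hazard for DFI and 0 with a lower one (median ratio 1.22), and 5 and 0 for OSv. The highest ratios were those of UTP15 (1.57), NOP10 (1.51), GTPBP4 (1.47) and WDR43 (1.47), factors of early subunit assembly or snoRNA-guided modification. Between clusters 21 of the 51 were lower in FP tumors and 0 higher, with NOP2 (-0.44), BYSL (-0.35) and POLR1A (-0.34) among them. Mitochondrial ribosomal proteins, which translate the mitochondrial genome, gave 22 of 75 with a higher hazard for DFI (median 1.16, highest MRPS7 at 1.41) and 19 lower against 1 higher in FP tumors. Proliferation genes gave 11 of 12 with a higher hazard for DFI, BUB1 having 1.44. These lists were chosen with earlier results of these data known, and the difference between them and the members was not tested. The median correlation with the members' mean was 0.19 for ribosome biogenesis genes and 0.34 for mitochondrial ribosomal proteins.

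The paralogs of the family are described on their own. RPL3L, the muscle form of RPL3, was at or below 10 counts in most tumors (median 0.384 CPM, over 10 counts in 51 libraries and over 10 CPM in 11), but reached 289 CPM in dog 1902 of COTC022. Across the 186 dogs its log2(CPM + 1) correlated with that of 11 summed skeletal muscle genes at r = 0.85 (rho = 0.67, permutation p = 1e-05 each, the smallest that 100000 resamples can give, adjusted p = 0.00011 over 11 relations). The value was 0.82 without the 2 dogs farthest from the median, 0.85 within double-separator and 0.85 within single-separator libraries. The dog with the highest RPL3L also had the highest summed muscle level (91402 CPM, median of all dogs 61.7). RPL10L, a retrogene known from testis, did not exceed 2.64 CPM.

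RPS27L is a p53 target as well as a paralog of RPS27. Of 10 genes of the p53 checkpoint, its level correlated with BBC3 (r = 0.29, rho = 0.26, permutation adjusted p = 0.00033 and 0.00143) and BAX (r = 0.26, rho = 0.27, adjusted p = 0.00169 and 0.00088), both p53 targets that promote cell death. It correlated inversely with RRM2B, which is a p53 target too (r = -0.24, adjusted p = 0.0041), and with MDM4, a p53 antagonist (r = -0.17, adjusted p = 0.0437). Without the 2 dogs farthest from the median of each, the values were 0.26, 0.29, -0.21 and -0.16, and within the double- and single-separator libraries they were 0.31 and 0.28 for BBC3, 0.20 and 0.29 for BAX, -0.23 and -0.24 for RRM2B and -0.26 and -0.13 for MDM4. The p53 targets CDKN1A (0.12), SESN1 (0.007) and ZMAT3 (-0.07), SESN2 (-0.04) and TIGAR (0.06) and the p53 antagonist MDM2 (0.01) gave adjusted p between 0.207 and 0.928. RPS27L itself differed by 0.01 ± 0.08 between the clusters (adjusted p = 0.935) and had a hazard ratio of 1.06 (0.89 to 1.27) for DFI, and RPL36AL one of 0.98 (0.82 to 1.17).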

How the data were processed

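Tumor RNA from 186 dogs was sequenced as stranded mRNA libraries. The authors deposited expected counts per gene, made per the labels' processing notes with cutadapt, STAR (2.7.0f) and RSEM (1.3.1), and per the methods against the GSD_1.0 dog assembly. The 12 other columns of the table were not used. Expected counts were rounded to whole numbers. Cluster, DFI and OSv per dog came from the study's source data sheet, in which all 186 dogs matched. Rerunning the K-means clustering placed 182 of 186 dogs as listed.

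Genes were filtered with filterByExpr (edgeR 4.0.16, minimum count 10, proportion 0.5, large n 5), leaving 13422, and scaled by TMM. Groups were compared by limma-voom (limma 3.58.1), with the trial as a covariate where styles and clusters were compared over both trials. DFI and OSv were examined by Cox models without a trial term (survival 3.8.3, Wald test, z-scored log2 CPM with a prior count of 2). Benjamini-Hochberg adjustment ran over all genes, and a call meant an adjusted p under 0.05. DESeq2 1.42.0, edgeR's quasi-likelihood test, other scalings, subsets of dogs and models with further terms were alternatives. The linear fits were also run on simulated counts in which genes varied independently. Those runs do not bear on counts of members that vary together. Cox fits were run on simulated times and on shuffled dogs, and the outcomes of these runs are not given here. CPM values in the text use library totals, while fold changes, SDs and correlations use TMM. Positions came from the RefSeq table of the same assembly, in which all 74 members matched. Of the members, the text names those with extreme levels, differences or correlations, the paralogs, the stalk genes, RPL5, RPL11, RPS6, RPS19, RPS4X and RPS27A. The dogs with extreme values of 1 member, and their neighboring genes, were named after their values were seen. A few genes are not reported here, and 2 members are left out of the plots that name genes. Members and lists were chosen with earlier results of these data known.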

Additional observations from a re-analysis of the deposited data

How the results depend on the processing

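Of the called members, 32 of 52 style values, 138 of 195 cluster values and 26 of 78 DFI values under alternatives stayed called, and none turned its direction. The member counts that moved by over 1.5 times were, for style (4 called), 7 by DESeq2 (472 of 13422 genes lower) and 11 without the low-count filter. They were 0 with the library total in the model and 1 within COTC021 and within COTC022. Within PP dogs 1 was called (80 genes lower) and within FP dogs 0 (60 genes lower). For the clusters (13 called) they were 24 by edgeR, 27 by DESeq2 and 8 with library totals (2048 of 13422 genes lower). They were 0 within COTC021, 3 within COTC022, 0 within double-separator and 6 within single-separator libraries. For DFI (6 called) they were 2 with library totals (602 of 13422 genes with a higher hazard), 2 without the filter (935 of 29940) and 1 stratified by trial. They were 0 within double- and single-separator libraries (92 and 5 genes with a higher hazard) and within COTC021 and COTC022 (393 and 1). With the GS-1 cluster in the model 0 members and 255 genes were called with a higher hazard. Without dog 1410, whose summed share was the highest, 10 members were called by style and 1 for DFI; this choice, the splits of style by cluster, and fits without the deepest library or the single-separator libraries over 15000000 counts were added after the data were seen. The members' median turned to 0.025 for style within COTC021 and to -0.055 for trial within double-separator libraries. Without the filter, 30014 genes entered the style test and 11362 (37.9%) were called lower. For trial and OSv the count of members called was 0 under every alternative run, so these say nothing about stability. Smaller subsets held fewer dogs. No paired analysis was possible because each dog gave 1 tumor and dog numbers are not shared between the trials. Leaving out each dog in turn was not run.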

Other observations

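Other lists of the translation machinery were counted in the same comparisons, in which 19.3% of all tested genes were lower and 18.7% higher in FP tumors, and 6.55% had a higher and 6.09% a lower hazard for DFI. Whether a list differed from genes at large was not tested. Of 22 other initiation factors, 7 were lower and 0 higher in FP tumors, and 8 had a higher hazard for DFI against 0 with a lower one (median ratio 1.14). The 12 tested eIF3 subunits gave 3 lower in FP tumors and 2 with a higher hazard, the 9 elongation factors 0 and 2, and 12 other TOP mRNAs 3 higher and 2 lower in FP tumors with 3 at a higher hazard. Of 18 genes of the mTOR axis, 1 was higher and 4 were lower in FP tumors, and 1 had a higher hazard. The p53 checkpoint genes gave 4 of 10 higher and 1 lower in FP tumors and 1 with a lower hazard. Stress translation genes gave 1 higher and 2 lower of 10, and hypoxia and glycolysis genes 1 higher and 1 lower of 10.

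RPL22L1, a paralog of RPL22 outside the name rule, was higher in FP tumors (log2 fold change 0.45, adjusted p = 0.00508 by limma-voom), while the paralogs RPL26L1 (-0.36, adjusted p = 0.0158) and RPL7L1 (-0.30, adjusted p = 0.0163) were lower, in 58 FP and 128 PP dogs.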
